A study of Mus musculus with 12 samples.

Results

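The 42 genes described here encode the machinery that copies DNA and the machinery that separates the copies at cell division. They were chosen by gene symbol, 17 as replication genes and 25 as mitotic genes, and were followed in mouse pancreatic islets across 6 groups. All 42 were found among the 24421 genes of the deposited count table. The filter on low counts left 17411 genes for testing and kept all 42, whose lowest count in any library was 9.

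Islets were profiled by stranded mRNA sequencing in 12 libraries, with 2 libraries, A and B, in each group. Control mice carried floxed Bmal1 alleles alone (Bmal1fl/fl), and knockout mice carried the same floxed alleles with RIPCreERT (Bmal1fl/flRIPCreERT/+), a Cre recombinase fused to an oestrogen receptor and driven by the rat insulin promoter, so that deletion is meant for beta cells. Bmal1, whose gene is listed as Arntl, encodes a core transcription factor of the circadian clock. Each genotype received citrate buffer (vehicle) or a submaximal dose of streptozotocin (STZ), a toxin that enters beta cells through a glucose transporter and damages their DNA. Vehicle islets are labelled 24 h, and STZ islets 24 h or 4 wk, so a comparison of 4 wk with vehicle mixes treatment and time. Controls lacked the transgene, so an effect of RIPCreERT and an effect of Bmal1 loss cannot be told apart. The labels give no age and do not say whether A and B came from separate animals, so a p-value here reflects the scatter of the deposited libraries alone, which may be technical.

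Before DNA is copied, the licensing factors CDC6 and CDT1 load the MCM2-7 helicase onto origins. Cyclin E with CDK2 and the E2F transcription factors then start S phase, while the PCNA clamp, the GINS complex and the enzymes of deoxynucleotide supply sustain it. Later, cyclins A and B with CDK1 drive mitosis, kinetochore and spindle proteins align the chromosomes, and CDC20 and UBE2C direct the anaphase-promoting complex to end it. Adult beta cells rarely divide.

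Total counts per library ran from 101772241 to 127207523. Levels are given as CPM, counts per 1000000 of a library size scaled by edgeR's trimmed-mean (TMM) factors, and A is given before B throughout. Arntl in controls was at 8.79 and 8.36 CPM with vehicle, 11.2 and 10.8 at STZ 24 h and 20.6 and 20.4 at STZ 4 wk, and in knockouts at 17.8 and 19.9, 8.88 and 9.43, and 11.3 and 11.6 CPM in the same order. The count covers the whole gene, so reads from outside the deleted part enter it and it does not check the deletion. Esr1, to which the receptor part of the transgene can add reads, was at 51.1 to 359 CPM in the 6 knockout libraries and at 0.706 to 2.29 CPM in the 6 controls, which goes with the labels. The islets are labelled as mostly beta cells: all 12 beta cell markers were detected in every group, but 13 acinar markers, from the enzyme-secreting tissue around islets, summed to between 78333 and 348074 CPM per library. In bulk RNA, fewer cells of a type and less RNA per cell cannot be told apart.

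The 2 classes differ in the short words of their promoters. Windows from 250 bases before to 50 bases after the start site, from RefSeq on GRCm38.p6, were matched for 33 of the 42 genes, 14 of the 17 replication and 19 of the 25 mitotic genes. The genes without a matched window are Mcm4, Gins2, Ccne2, Ccna2, Aurkb, Kif20a, Tpx2, Foxm1 and Wee1. The word TTTGAA, the core of the cell cycle homology region through which the DREAM and MuvB complexes time late cell cycle genes, stood on either strand in 14 of 19 mitotic windows (73.7%), in 1 of 14 replication windows (7.14%) and in 17.9% of all 32851 windows. An E2F word (TTTGGCGC, TTTCCCGC, TTTGCCGC or TTTCGCGC, either strand) stood in 7 of 14 replication windows (50%), in 1 of 19 mitotic windows (5.26%) and in 2.26% of all. The word CCAAT, bound by NF-Y, stood in 9 of 14 replication windows (64.3%), 17 of 19 mitotic windows (89.5%) and 37.4% of all, and the clock's canonical E-box, CACGTG, in 1 replication window, no mitotic window and 7.15% of all. A match describes the letters of the window and is not a binding site.

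The 150 bases before the start are shown for 4 mitotic and 3 replication genes picked because they hold the word of their class and were called in the comparisons below, 5′ to 3′ on the strand of the gene, with each TTTGAA or E2F word in capitals as it reads on that strand (TTCAAA, GCGCCAAA, GCGGGAAA and GCGCGAAA are reverse complements). They lie at chr11:99024190-99024339 (minus strand) for Top2a, chr7:135716380-135716529 (minus) for Mki67, chr10:69352913-69353062 (minus) for Cdk1, chr2:164769779-164769928 (plus) for Ube2c, chr1:128359706-128359855 (minus) for Mcm6, chr8:75109359-75109508 (plus) for Mcm5 and chr10:128705052-128705201 (minus) for Cdk2.
Top2a: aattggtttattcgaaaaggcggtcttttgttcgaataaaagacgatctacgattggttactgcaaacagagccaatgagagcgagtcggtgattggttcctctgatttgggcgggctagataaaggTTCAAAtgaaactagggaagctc
Mki67: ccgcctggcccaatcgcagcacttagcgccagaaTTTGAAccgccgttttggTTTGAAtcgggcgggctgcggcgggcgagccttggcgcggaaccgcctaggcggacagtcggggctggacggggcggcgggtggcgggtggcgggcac
Cdk1: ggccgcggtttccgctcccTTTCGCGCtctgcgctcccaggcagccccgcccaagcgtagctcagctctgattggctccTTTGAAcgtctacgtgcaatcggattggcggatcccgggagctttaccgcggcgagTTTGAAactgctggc
Ube2c: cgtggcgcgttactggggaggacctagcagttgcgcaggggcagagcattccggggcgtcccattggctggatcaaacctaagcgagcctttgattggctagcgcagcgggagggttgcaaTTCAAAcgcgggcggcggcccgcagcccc
Mcm6: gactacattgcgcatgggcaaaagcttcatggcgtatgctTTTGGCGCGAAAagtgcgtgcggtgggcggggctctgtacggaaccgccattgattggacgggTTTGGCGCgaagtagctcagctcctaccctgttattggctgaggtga
Mcm5: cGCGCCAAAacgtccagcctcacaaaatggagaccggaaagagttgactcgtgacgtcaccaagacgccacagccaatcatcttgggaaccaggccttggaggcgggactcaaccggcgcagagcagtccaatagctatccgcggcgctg
Cdk2: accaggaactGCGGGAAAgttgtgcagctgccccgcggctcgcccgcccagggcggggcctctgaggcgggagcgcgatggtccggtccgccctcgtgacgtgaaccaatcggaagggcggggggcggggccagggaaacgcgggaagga
TTTGAA lies within 30 bases of the start in Top2a, Cdk1 and Ube2c, with the word nearest the start at positions -23 to -18, -15 to -10 and -29 to -24. In Mki67 both copies lie farther out, at -116 to -111 and -98 to -93. Cdk1 is the mitotic gene with an E2F word as well. Other members lack the word of their class: the windows of Ccnb1, Bub1, Cenpe, Birc5 and Nusap1 hold no TTTGAA, and those of Mcm2, Pcna, Rrm1, Rrm2, Tyms, E2f1 and Ccne1 no E2F word. In Mcm6 the first E2F word overlaps another on the opposite strand, so its 3 matches make 2 stretches of capitals.

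Per kilobase, with the count of each transcript divided by its own length before summing, replication genes were the more abundant class in control vehicle islets. Pcna, the sliding clamp, was highest at 21.1 ± 1.71 CPM per kb (SD, n = 2), followed by Rrm1, the large subunit of ribonucleotide reductase, at 5.85 ± 0.153, Mcm6 at 5.32 ± 0.213 and Mcm7 at 4.70 ± 0.353. Rrm1 and Mcm6 differed by more than their SDs, and Mcm6 and Mcm7 likewise. Of mitotic genes Wee1, the kinase that holds CDK1 inactive, was highest at 4.09 ± 0.0452 CPM per kb, and Top2a, which untangles sister DNA, was next at 1.87 ± 0.266. At the bottom stood Cenpe, Bub1, Cdc6 and Plk1, at 0.171 ± 0.0256, 0.169 ± 0.0580, 0.169 ± 0.0279 and 0.151 ± 0.0523, neighbours that did not differ beyond their spread. In knockout STZ 24 h islets Pcna was still highest, at 33.8 ± 1.28, Mcm3 had moved from rank 17 to rank 5, at 7.50 ± 0.477, and Bub1b from rank 31 to rank 15, at 3.26 ± 0.0579.

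Values in every library are given below for 14 genes chosen for their role, Mcm2, Mcm6, Pcna, Rrm2, Cdc6 and E2f1 among replication and Mki67, Top2a, Cdk1, Ccnb1, Aurkb, Birc5, Foxm1 and Wee1 among mitotic genes, called role examples, and for the genes of smallest adjusted p in each comparison. Summed over the class, the 17 replication genes of controls reached 139 and 141 CPM with vehicle, 186 and 180 at STZ 24 h and 163 and 154 at STZ 4 wk. Those of knockouts reached 127 and 135, 291 and 292, and 183 and 174 CPM in the same order. The 25 mitotic genes of controls summed to 69.1 and 78.3 CPM with vehicle, 113 and 109 at STZ 24 h and 73.4 and 59.0 at STZ 4 wk, and those of knockouts to 37.7 and 43.4, 209 and 198, and 152 and 121 CPM. Knockout STZ 24 h libraries were the highest in both classes, with no overlap with any other group. Knockout vehicle libraries were the lowest in both classes, though in the replication class they lay close to control vehicle. At 4 wk the knockout libraries lay above all 6 control libraries in the mitotic sum. In the replication sum they lay above both control STZ 4 wk libraries, at 183 and 174 against 163 and 154 CPM. They did not exceed the higher control STZ 24 h library there, at 186 CPM.

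**Figure D1:**
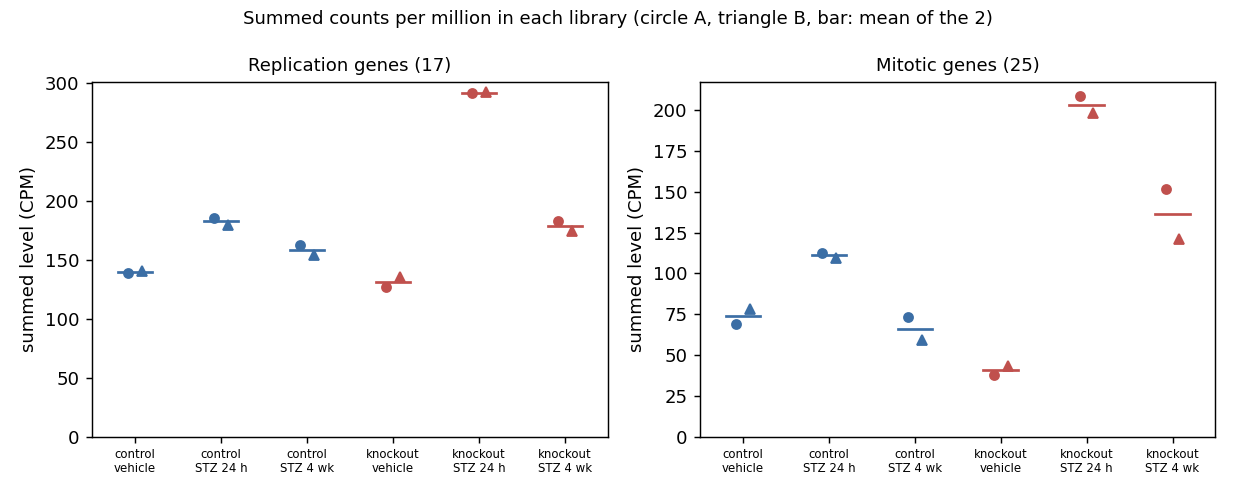
Summed level in CPM of the 17 replication genes (left) and the 25 mitotic genes (right) in each library of the 6 groups, with A as a circle, B as a triangle and a bar at their mean. Knockout STZ 24 h libraries are highest in both panels, at 291 and 292 CPM and at 209 and 198 CPM, and knockout vehicle libraries are lowest, at 127 and 135 CPM and at 37.7 and 43.4 CPM.

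In vehicle islets a minority of the mitotic genes was lower in the knockout. By edgeR's quasi-likelihood test with Benjamini-Hochberg adjustment, which gives every adjusted p below unless another tool is named, 8 of 25 mitotic genes fell and none rose, against 9.64% of all tested genes called in either direction and 7.68% called lower. Those 8 were Mki67, Top2a, Cdk1, Bub1b, Cenpe, Birc5, Kif11 and Tpx2. Of the 17 replication genes edgeR called none, with 0 higher and 4 lower at an unadjusted p under 0.05, and DESeq2 called 2 lower. The median log2 difference was -1.03 over mitotic genes, -0.18 over replication genes and 0 over all genes tested. All 25 mitotic genes had a negative log2 difference, from -1.51 to -0.31.

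Mki67, the gene of the Ki-67 protein that coats mitotic chromosomes, was at 10.1 and 12.1 CPM in control vehicle and 3.71 and 4.66 CPM in knockout vehicle. The groups did not overlap, and the difference was -1.41 ± 0.23 (log2 ± SE, n = 2 per group, adjusted p = 0.00525), which is 0.376 of the control level. Top2a was at 8.79 and 10.8 CPM in control and 3.86 and 4.13 in knockout, again without overlap (-1.29 ± 0.21, adjusted p = 0.00524). Bub1b, the BUBR1 kinase of the spindle checkpoint, was at 1.87 and 1.92 CPM in control and 0.801 and 0.686 in knockout (-1.35 ± 0.23, adjusted p = 0.00577). Birc5, survivin of the chromosomal passenger complex, was at 1.03 and 1.09 CPM in control and 0.512 and 0.229 in knockout (-1.51 ± 0.35, adjusted p = 0.0272), and Cdk1, the mitotic kinase, at 2.01 and 2.83 in control and 1.37 and 1.27 in knockout (-0.87 ± 0.20, adjusted p = 0.0249). In all 5 genes both knockout libraries lay below both control libraries. Such separation does not mark the called genes, since uncalled Ccnb1, Aurkb, Foxm1, Mcm6 and Rrm2 were separated in the same direction. Uncalled Mcm2 was separated in the other direction, and the share of all genes so separated was not counted. Other mitotic genes with a negative difference did not pass the test. Ccnb1, cyclin B1, was at 1.34 and 1.23 CPM in control and 0.469 and 0.760 in knockout (-1.06 ± 0.28, adjusted p = 0.0514). Aurkb, the passenger complex kinase, was at 0.326 and 0.432 in control and 0.252 and 0.0735 in knockout (-1.20 ± 0.47, adjusted p = 0.196). Foxm1, a transcription factor of late cell cycle genes, was at 1.28 and 1.59 in control and 1.06 and 1.09 in knockout (-0.42 ± 0.18, adjusted p = 0.227).

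Replication genes lay closer together. Pcna was at 25.04 and 28.1 CPM in control and 22.8 and 29.2 in knockout, which overlap (-0.03 ± 0.17, adjusted p = 0.996). Mcm2 was at 7.63 and 6.35 in control and 8.83 and 8.02 in knockout (0.27 ± 0.22, adjusted p = 0.632), and Mcm6 at 15.9 and 15.0 in control and 14.3 and 12.3 in knockout (-0.21 ± 0.13, adjusted p = 0.475). Neither of these helicase subunits differed beyond the error of the test. Rrm2, the inducible subunit of ribonucleotide reductase, was at 6.36 and 6.71 in control and 4.75 and 4.55 in knockout (-0.49 ± 0.16, adjusted p = 0.108). The vehicle calls rest on few libraries: Mki67, Top2a and Bub1b were called without each library in turn, and 5 or 4 members were called without control vehicle A or B. Birc5 lost its call without control vehicle A, control vehicle B or knockout vehicle B (adjusted p = 0.0791 to 0.12), and Cdk1 without control vehicle B, knockout vehicle A or knockout vehicle B (adjusted p = 0.092 to 0.183). Scaled by total counts, which puts the median gene at 0.53, 4 replication genes were higher and 4 mitotic genes lower, with medians of 0.35 and -0.50. Over all 17411 genes 6221 were then higher and 984 lower, and both class medians lay below the median gene. With TMM scaling all 13 acinar markers, 5 of 11 lymphocyte markers and 1 of 15 macrophage markers were lower, against 7.68% of all genes. So were 9 of 10 liver, 5 of 9 ductal, 5 of 7 stomach, 3 of 10 fibroblast, 3 of 13 intestinal and 2 of 6 neutrophil markers. Only 1 marker was higher, of 7 for alpha cells, and the part of these cells in the result was not tested.

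In control islets a minority of both classes was higher 24 h after STZ than after vehicle. Of the replication genes 4 of 17 rose (Mcm3, Mcm5, Mcm6 and Cdc6) and none fell. Of the mitotic genes 7 of 25 rose (Top2a, Cdk1, Cenpe, Cenpf, Cenpa, Foxm1 and Ube2c) and none fell, against 7.56% of all genes called and 5.41% called higher. The median log2 change was 0.45 over replication genes, 0.78 over mitotic genes and 0.02 over all genes.

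Cdc6 was at 0.675 and 0.854 CPM in control vehicle and 2.32 and 2.96 in control STZ 24 h, a change of 1.79 ± 0.23 (adjusted p = 0.00104). Mcm3, a helicase subunit, went from 3.34 and 3.27 to 6.88 and 7.30 CPM (1.10 ± 0.14, adjusted p = 0.00109). Mcm6 went from 15.9 and 15.0 to 25.2 and 20.8 CPM (0.57 ± 0.13, adjusted p = 0.0311). These licensing genes separated the groups fully, as did the kinetochore genes that follow. Cenpf went from 2.13 and 2.38 to 5.98 and 4.71 CPM (1.24 ± 0.20, adjusted p = 0.0051). Cenpe, a kinetochore motor, went from 1.20 and 1.48 to 2.90 and 3.13 CPM (1.17 ± 0.22, adjusted p = 0.0125). Foxm1 went from 1.28 and 1.59 to 2.57 and 2.79 CPM (0.90 ± 0.18, adjusted p = 0.014), Top2a from 8.79 and 10.8 to 20.2 and 18.7 CPM (0.99 ± 0.21, adjusted p = 0.0222) and Cdk1 from 2.01 and 2.83 to 4.78 and 4.39 CPM (0.92 ± 0.20, adjusted p = 0.0221). Ki-67 did not follow them past the threshold: Mki67 was at 16.99 and 16.4 CPM after STZ, above both vehicle libraries (0.58 ± 0.23, adjusted p = 0.218). Pcna was at 29.7 and 29.2 CPM (0.15 ± 0.17, adjusted p = 0.68), Rrm2 at 6.78 and 5.71 (-0.07 ± 0.16, adjusted p = 0.854) and Wee1 at 13.6 and 12.2 against 13.9 and 14.1 (-0.12 ± 0.18, adjusted p = 0.767). Mcm3 and Cdc6 were called without each library in turn, while 2, 7, 2 and 4 members were called without control vehicle A, control vehicle B, control STZ 24 h A and control STZ 24 h B. Of the genes named, Mcm6, Top2a, Cdk1, Foxm1, Cenpf and Cenpe lost their calls without control vehicle A or control STZ 24 h A, Mcm6 and Top2a also without control vehicle B, and Top2a, Cdk1, Foxm1 and Cenpe also without control STZ 24 h B (adjusted p = 0.0509 to 0.262).

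In knockout islets nearly the whole set was higher 24 h after STZ. Of the replication genes 14 of 17 rose, all but E2f1, Ccne1 and Ccne2, and of the mitotic genes 24 of 25 rose, all but Wee1. The background was wide, with 56.4% of all genes called and 30.1% called higher. The median log2 change was 1.46 over replication genes and 2.90 over mitotic genes, with 0 over all genes, so the mitotic median exceeded the replication median by 1.45. Of the 38 calls, 37 were made without each library in turn, Rrm1 being the exception.

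Bub1b went from 0.801 and 0.686 CPM in knockout vehicle to 11.8 and 12.1 CPM in knockout STZ 24 h, a 16.0-fold rise (4.00 ± 0.25, adjusted p = 1.91e-06). Top2a went from 3.86 and 4.13 to 36.6 and 34.2 CPM (3.15 ± 0.23, adjusted p = 5.19e-06), and Cenpe from 0.541 and 0.768 to 6.15 and 5.495 CPM (3.15 ± 0.24, adjusted p = 6.17e-06). Both knockout STZ libraries of each gene stood several fold above both vehicle libraries. Mki67 went from 3.71 and 4.66 to 39.9 and 35.8 CPM (3.18 ± 0.25, adjusted p = 8.44e-06). Aurkb went from 0.252 and 0.0735 to 2.64 and 2.61 CPM (3.99 ± 0.48, adjusted p = 0.00013), and Birc5, its partner in the passenger complex, from 0.512 and 0.229 to 3.14 and 3.36 CPM (3.12 ± 0.36, adjusted p = 9.25e-05). Cdk1 and its cyclin rose less: Cdk1 from 1.37 and 1.27 to 6.55 and 5.64 CPM (2.20 ± 0.20, adjusted p = 2.16e-05), and Ccnb1 from 0.469 and 0.760 to 3.58 and 4.57 CPM (2.73 ± 0.29, adjusted p = 5.9e-05). Foxm1 went from 1.06 and 1.09 to 4.43 and 4.08 CPM (1.99 ± 0.18, adjusted p = 1.85e-05).

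Among replication genes Mcm3 went from 3.05 and 2.78 to 20.7 and 22.6 CPM, a 7.42-fold rise (2.89 ± 0.15, adjusted p = 5.98e-07). Cdc6 went from 0.476 and 0.523 to 4.86 and 5.64 CPM (3.39 ± 0.24, adjusted p = 3.82e-06). Cdk2, the kinase of S phase entry, went from 3.64 and 2.86 to 14.8 and 15.5 CPM (2.22 ± 0.17, adjusted p = 6.24e-06). In these licensing and S phase entry genes both STZ libraries lay far above both vehicle libraries. Mcm2 went from 8.83 and 8.02 to 18.6 and 19.6 CPM (1.18 ± 0.22, adjusted p = 0.00179), Mcm6 from 14.3 and 12.3 to 41.96 and 39.1 CPM (1.60 ± 0.13, adjusted p = 1.16e-05) and Rrm2 from 4.75 and 4.55 to 16.8 and 13.9 CPM (1.72 ± 0.16, adjusted p = 2.5e-05). Pcna changed least of the role examples that rose, from 22.8 and 29.2 to 43.8 and 41.5 CPM (0.71 ± 0.17, adjusted p = 0.0071).

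The difference between genotypes in the 24 h response was tested as an interaction. It was positive for 10 of 17 replication genes and 20 of 25 mitotic genes, and negative for none, against 37.7% of all genes called and 21.1% called positive. Its median was 1.03 over replication genes, 2.05 over mitotic genes and -0.01 over all genes. The smallest adjusted p values belonged to Bub1b (3.50 ± 0.32, adjusted p = 4.96e-05), Mki67 (2.59 ± 0.33, adjusted p = 0.00033) and Top2a (2.15 ± 0.30, adjusted p = 0.000557) among mitotic genes. Among replication genes they belonged to Cdk2 (2.29 ± 0.23, adjusted p = 8.12e-05), Mcm3 (1.79 ± 0.20, adjusted p = 0.000134) and Rrm2 (1.79 ± 0.23, adjusted p = 0.000303). Bub1, Cenpf, Prc1, Ube2c and Wee1 were the mitotic genes that did not pass, although Cenpf and Ube2c had risen in both genotypes. Mcm2, Pcna, Rrm1, Gins2, E2f1, Ccne1 and Ccne2 were the replication genes that did not. The vehicle libraries enter both this value and the vehicle comparison, so the lower start of mitotic genes in the knockout is part of it. Scaled by total counts, which puts the median gene at -0.79, 4 replication genes were positive and 2 negative, with a median of 0.24, and 14 mitotic genes were positive, with a median of 1.27. Over all genes 2436 were then positive and 7708 negative. Of the 30 calls, 23 were made without each library in turn, and all 6 genes given with values were among them.

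**Figure D2:**
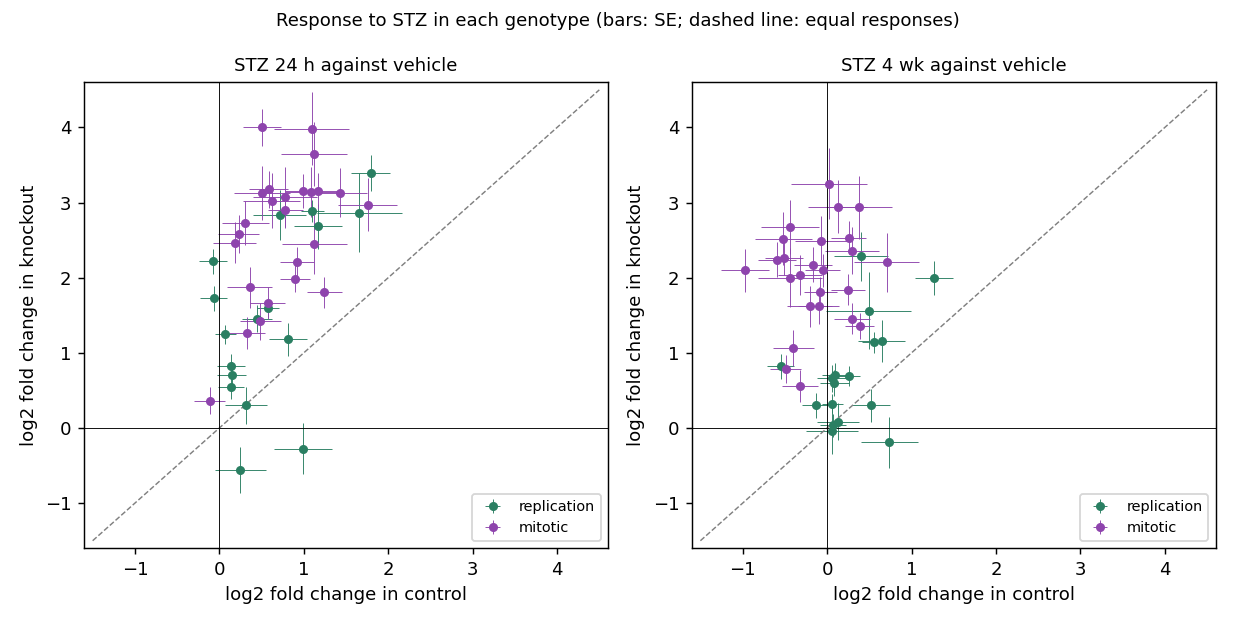
Log2 fold change of each of the 42 genes after STZ against vehicle, in control islets (x axis) and knockout islets (y axis), at 24 h (left) and 4 wk (right), with SE as bars and a dashed line of equal responses. At 24 h most genes lie above the line, up to 4.00 for Bub1b in knockout against 0.51 in control, and at 4 wk the mitotic genes stay high on the y axis around a median of 2.10 while their control median is -0.10.

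Set side by side at 24 h, knockout islets exceeded control islets in both classes. Of the replication genes 12 of 17 were higher and 1, E2f1, was lower, and of the mitotic genes 17 of 25 were higher and none lower, against 43.0% of all genes called, 23.7% higher and 19.4% lower. The median log2 difference was 0.64 over replication genes, 0.90 over mitotic genes and 0.002 over all genes. The uncalled members were Tyms, Gins2, Ccne1 and Ccne2, and Cdk1, Ccna2, Bub1, Cenpf, Prc1, Cdc20, Ube2c and Wee1. These counts depend on the scaling. Scaled by total counts, which puts the median gene at -0.24, 8 replication and 10 mitotic genes were higher and 2 replication genes lower. Over all genes 3318 were then higher and 5183 lower. Scaled to genes shared by islet endocrine cells, which puts it at 1.73, all 42 were higher, with 14415 of all genes higher and 110 lower.

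Mcm3 was at 6.88 and 7.30 CPM in control and 20.7 and 22.6 in knockout (1.61 ± 0.14, adjusted p = 3.26e-05). Cdk2 was at 4.78 and 4.36 CPM in control and 14.8 and 15.5 in knockout (1.73 ± 0.17, adjusted p = 5.58e-05), and Rrm2 at 6.78 and 5.71 against 16.8 and 13.9 (1.30 ± 0.16, adjusted p = 0.000233). The groups did not overlap for any of these. Bub1b was at 2.12 and 3.27 CPM in control and 11.8 and 12.1 in knockout (2.15 ± 0.23, adjusted p = 9.71e-05). Kif23, a motor of cytokinesis, was at 2.39 and 1.93 CPM in control and 7.28 and 7.75 in knockout (1.80 ± 0.25, adjusted p = 0.000437), and Mki67 at 16.99 and 16.4 against 39.9 and 35.8 (1.18 ± 0.23, adjusted p = 0.00315). The libraries of the 2 genotypes did not overlap in these mitotic genes either. Other role examples called higher were Mcm6 (0.82 ± 0.13, adjusted p = 0.00104), Cdc6 (0.99 ± 0.21, adjusted p = 0.0054), Top2a (0.86 ± 0.21, adjusted p = 0.00967), Ccnb1 (1.36 ± 0.28, adjusted p = 0.00392), Aurkb (1.70 ± 0.43, adjusted p = 0.0117), Foxm1 (0.67 ± 0.17, adjusted p = 0.0127), Birc5 (1.11 ± 0.33, adjusted p = 0.0242), Pcna (0.53 ± 0.17, adjusted p = 0.0338) and Mcm2 (0.64 ± 0.22, adjusted p = 0.0438). Cdk1, at 4.78 and 4.39 CPM in control and 6.55 and 5.64 in knockout, did not pass (0.41 ± 0.19, adjusted p = 0.12).

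The number of these calls moved with every library. Without control STZ 24 h A or B, 15 or 14 members were called, and without knockout STZ 24 h A or B, 15 or 19, against 30 with all. Those called each time were Mcm3, Mcm4, Mcm5, Mcm6, Rrm2, Cdt1, Cdk2, Mki67, Ccnb1, Bub1b and Kif23, while Mcm2, Pcna, Birc5 and E2f1 lost their calls each time (adjusted p = 0.0732 to 0.173). Aurkb and Foxm1 lost theirs without control STZ 24 h A, control STZ 24 h B or knockout STZ 24 h A, Top2a without the last 2 of these and Cdc6 without the first (adjusted p = 0.0504 to 0.0925).

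**Figure D3:**
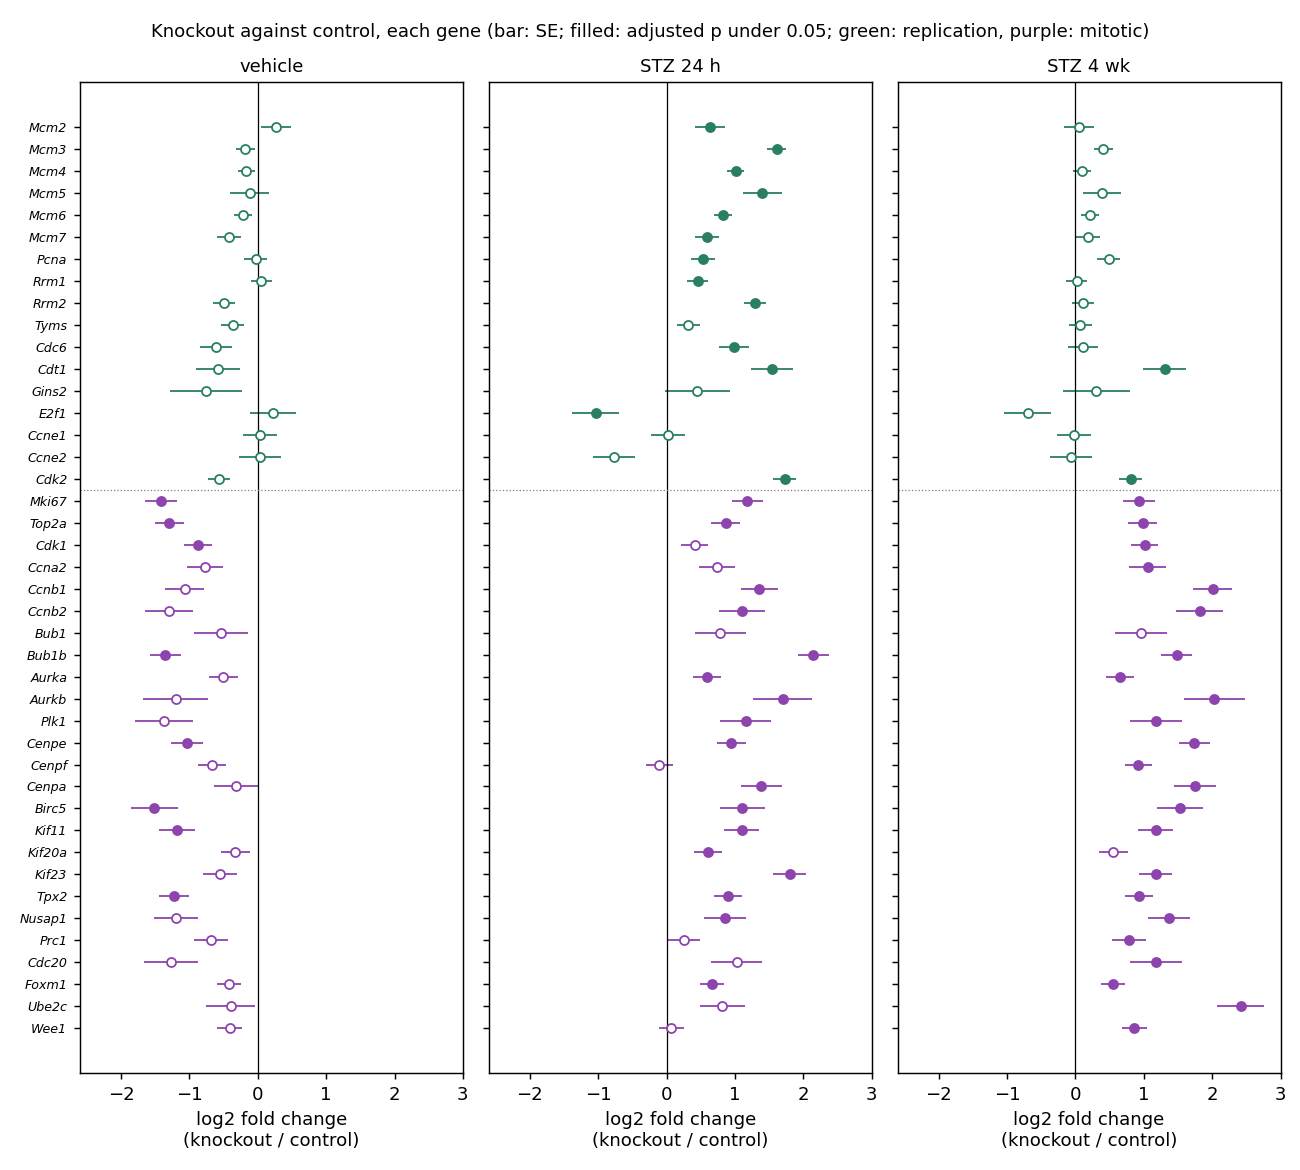
Log2 fold change of knockout over control for each gene in vehicle, STZ 24 h and STZ 4 wk islets, with SE as bars, filled points for an adjusted p under 0.05, replication genes in green above the dotted line and mitotic genes in purple below it. Mitotic points lie left of 0 in vehicle (median -1.03), and right of 0 at 24 h (0.90), apart from Cenpf at -0.10, and at 4 wk (1.17). The replication median is near 0 at 4 wk (0.12).

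By 4 wk after STZ few members of either class differed from vehicle in control islets. Of the replication genes 2 of 17, Cdc6 and Mcm3, were higher than in vehicle. Of the 25 mitotic genes edgeR called none, with 0 higher and 3 lower at an unadjusted p under 0.05, and DESeq2 called 1 lower, against 8.99% of all genes called, 4.98% higher and 4.01% lower. The median log2 change was 0.13 over replication genes, -0.10 over mitotic genes and 0.03 over all genes. Cdc6 was at 2.05 and 1.65 CPM (1.27 ± 0.22, adjusted p = 0.00734) and Mcm3 at 4.99 and 4.70 CPM (0.55 ± 0.14, adjusted p = 0.042), both above their vehicle libraries. No call was made without control vehicle A, and 1 was made without control vehicle B, control STZ 4 wk A or control STZ 4 wk B. Scaled by total counts, which puts the median gene at 0.41, 9 members were higher and none lower, with a mitotic median of 0.28. Scaled by a list of genes shared by islet endocrine cells, which puts it at -0.28, 1 was higher and 3 were lower. Of all genes, 3852 were higher and 455 lower with total-count scaling, and 575 and 1335 with endocrine scaling.

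In knockout islets at 4 wk most mitotic genes were still above vehicle. Of the mitotic genes 24 of 25, all but Kif20a, were higher, and of the replication genes 10 of 17 were (Mcm3, Mcm5, Mcm6, Mcm7, Pcna, Rrm2, Cdc6, Cdt1, Gins2 and Cdk2), with none lower in either class, against 35.9% of all genes called and 24.1% higher. The median log2 change was 2.10 over mitotic genes, 0.66 over replication genes and 0.02 over all genes. Top2a was at 27.4 and 18.8 CPM (2.53 ± 0.22, adjusted p = 2.97e-05), Cenpe at 3.47 and 2.81 CPM (2.26 ± 0.23, adjusted p = 7.32e-05) and Bub1b at 3.60 and 3.44 CPM (2.24 ± 0.23, adjusted p = 8.29e-05). Each lay above both knockout vehicle libraries and below both knockout STZ 24 h libraries. Cdc6 was at 1.93 and 2.05 CPM (1.99 ± 0.23, adjusted p = 0.000149) and Mcm3 at 5.95 and 6.93 CPM (1.14 ± 0.14, adjusted p = 0.000229), with Cdt1, the licensing factor destroyed when S phase begins, at 1.62 and 3.09 CPM against 0.527 and 0.441 in vehicle (2.28 ± 0.33, adjusted p = 0.000627). Of 34 calls, 27 were made without each library in turn. Among the role examples Pcna lost its call without knockout vehicle A (adjusted p = 0.13) and knockout STZ 4 wk A (adjusted p = 0.113), Wee1 without knockout vehicle A (adjusted p = 0.0628) and Rrm2 without knockout vehicle B (adjusted p = 0.0502).

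The 4 wk knockout was then compared with control at the same time. Of the mitotic genes 23 of 25 were higher, all but Bub1 and Kif20a, while of the replication genes 2 of 17 were, Cdt1 and Cdk2, and none of either class was lower, against 27.8% of all genes called, 19.9% higher and 7.89% lower. The share of replication genes called, 11.8%, is below that background, and the share of mitotic genes, 92.0%, is above it. The median log2 difference was 1.17 over mitotic genes, 0.12 over replication genes and 0.01 over all genes. The count of replication genes behind this split depends on the scaling. Set to genes shared by islet endocrine cells, which puts the median gene at 0.64, 13 replication and 25 mitotic genes were higher. Over all genes 7589 were then higher and 93 lower. The medians became 0.76 over replication and 1.79 over mitotic genes. The replication median thus stayed near the median gene, and the mitotic median stayed above it. With only the 4 libraries compared, 7 members were called, all mitotic.

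Ube2c, the ubiquitin-conjugating enzyme of the anaphase-promoting complex, was at 0.509 and 0.466 CPM in control and 2.43 and 2.80 in knockout, a 5.35-fold difference (2.42 ± 0.34, adjusted p = 0.00085). Ccnb1 was at 0.731 and 0.575 CPM in control and 2.92 and 2.35 in knockout, a 4.03-fold difference (2.01 ± 0.29, adjusted p = 0.000852). Cenpe was at 0.969 and 0.910 CPM in control and 3.47 and 2.81 in knockout (1.74 ± 0.23, adjusted p = 0.00049). In all 3 the knockout libraries stood clear of the controls. Cdk1 was at 2.26 and 2.33 CPM against 4.92 and 4.37 (1.02 ± 0.20, adjusted p = 0.0045), Top2a at 13.4 and 9.88 against 27.4 and 18.8 (0.98 ± 0.21, adjusted p = 0.00787) and Mki67 at 11.5 and 8.36 against 22.7 and 15.1 (0.93 ± 0.23, adjusted p = 0.0159). Aurkb was at 0.361 and 0.408 CPM against 1.38 and 1.78 (2.03 ± 0.44, adjusted p = 0.00848), Birc5 at 0.657 and 0.823 against 1.96 and 2.32 (1.53 ± 0.34, adjusted p = 0.00906) and Foxm1 at 1.92 and 1.83 against 2.72 and 2.78 (0.55 ± 0.17, adjusted p = 0.0439). Foxm1 thus had the smallest difference of the called mitotic genes named here, and the libraries of each gene did not overlap. Cdk2 was at 3.11 and 3.44 CPM in control and 5.93 and 5.55 in knockout (0.81 ± 0.16, adjusted p = 0.00566), and Cdt1 at 1.05 and 0.859 against 1.62 and 3.09 (1.31 ± 0.31, adjusted p = 0.0137).

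None of the other replication genes passed the test. Mcm2 was at 8.62 and 11.4 CPM in control and 8.17 and 12.6 in knockout, which overlap (0.05 ± 0.22, adjusted p = 0.906). Mcm6 was at 19.1 and 18.0 CPM against 22.4 and 20.5 (0.21 ± 0.13, adjusted p = 0.277), Rrm2 at 7.06 and 6.89 against 8.23 and 6.89 (0.12 ± 0.16, adjusted p = 0.661) and Cdc6 at 2.05 and 1.65 against 1.93 and 2.05 (0.11 ± 0.22, adjusted p = 0.769). Pcna, at 31.0 and 25.4 against 44.8 and 34.2 CPM, had the largest positive difference among the uncalled role examples (0.49 ± 0.17, adjusted p = 0.0679). The counts moved with control STZ 4 wk B, without which 12 members were called against 25. Across the 4 libraries left out in turn, 11 to 19 mitotic and 1 to 4 replication genes were higher, and Cdk2, Cdk1, Ccnb1, Ccnb2, Bub1b, Cenpe, Cenpa, Kif23 and Ube2c were called each time. Foxm1 lost its call without each library (adjusted p = 0.0857 to 0.157), Mki67 without control STZ 4 wk B or knockout STZ 4 wk A (adjusted p = 0.0752 to 0.095), Top2a without control STZ 4 wk B (adjusted p = 0.0525), Aurkb and Birc5 without control STZ 4 wk A (adjusted p = 0.0551 to 0.0642) and Cdt1 without control STZ 4 wk B or knockout STZ 4 wk B (adjusted p = 0.0715 to 0.0819).

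The interaction at 4 wk was positive for 23 of 25 mitotic genes and for 2 of 17 replication genes, Cdk2 and Cdt1, and negative for none, against 26.1% of all genes called, 18.7% positive and 7.35% negative. Its median was 2.28 over mitotic genes, 0.51 over replication genes and 0 over all genes. Among mitotic genes its adjusted p was smallest for Bub1b (2.83 ± 0.32, adjusted p = 0.000232), Cenpe (2.77 ± 0.32, adjusted p = 0.000255) and Ccnb1 (3.08 ± 0.40, adjusted p = 0.00055). The 2 replication genes were Cdk2 (1.37 ± 0.23, adjusted p = 0.00218) and Cdt1 (1.88 ± 0.45, adjusted p = 0.0145). In Ccnb1 the control change was -0.98 ± 0.28 (adjusted p = 0.0768) and the knockout change 2.10 ± 0.29 (adjusted p = 0.000482). Of the 25 calls, 22 were made without each library in turn. Scaled by total counts, which puts the median gene at -0.62, 19 mitotic and 2 replication genes were positive and 3 replication genes negative, with a replication median of -0.12. Scaled to endocrine genes, which puts it at 1.05, 25 mitotic and 14 replication genes were positive. Of all genes, 2371 were positive and 5832 negative with total-count scaling, and 9009 and 61 with endocrine scaling. Cdt1 lost its call without knockout vehicle B (adjusted p = 0.0509), and Foxm1 without control vehicle B (adjusted p = 0.0725), control STZ 4 wk B (adjusted p = 0.0579) or knockout vehicle A (adjusted p = 0.0524).

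The step from 24 h to 4 wk after STZ was compared within each genotype, a comparison added after the values had been seen. In control islets 6 of 25 mitotic genes were lower at 4 wk (Cdk1, Ccnb1, Bub1b, Cenpe, Cenpf and Ube2c), and edgeR called no replication gene, with 0 higher and 5 lower at an unadjusted p under 0.05 and 1 lower by DESeq2, against 5.49% of all genes called and 4.22% lower. Cenpe fell from 2.90 and 3.13 to 0.969 and 0.910 CPM (-1.68 ± 0.23, adjusted p = 0.00274), Cdk1 from 4.78 and 4.39 to 2.26 and 2.33 CPM (-0.998 ± 0.20, adjusted p = 0.0194) and Cenpf from 5.98 and 4.71 to 3.05 and 2.32 CPM (-0.99 ± 0.20, adjusted p = 0.022). Only Cenpe of these 6 was called without each library in turn, with 2, 2, 3 and 1 members called without control STZ 24 h A, STZ 24 h B, STZ 4 wk A and STZ 4 wk B. In knockout islets 11 of 17 replication genes and 8 of 25 mitotic genes were lower, none higher, against 35.7% of all genes called and 15.5% lower. There Mcm3 fell from 20.7 and 22.6 to 5.95 and 6.93 CPM (-1.75 ± 0.14, adjusted p = 3.52e-05), Cdk2 from 14.8 and 15.5 to 5.93 and 5.55 CPM (-1.40 ± 0.16, adjusted p = 0.00026) and Mcm4 from 26.8 and 26.2 to 14.8 and 13.1 CPM (-0.92 ± 0.13, adjusted p = 0.000592). Bub1b fell by 1.76 on the log2 scale (SE 0.22, adjusted p = 0.000403), Mki67 by 1.002 (SE 0.23, adjusted p = 0.00916) and Cenpe by 0.89 (SE 0.22, adjusted p = 0.0122), while Ube2c did not pass (-0.03 ± 0.32, adjusted p = 0.959). Medians were -0.29 and -0.89 in control and -0.88 and -0.63 in knockout, replication before mitotic. Whether the order of the classes differs between genotypes was not tested. Without knockout STZ 24 h A or B, 9 or 10 members were called in knockout against 19, Mki67 lost its call without A (adjusted p = 0.0579), and Cenpe lost its call without A (adjusted p = 0.0787) and without knockout STZ 4 wk B (adjusted p = 0.059).

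**Figure D4:**
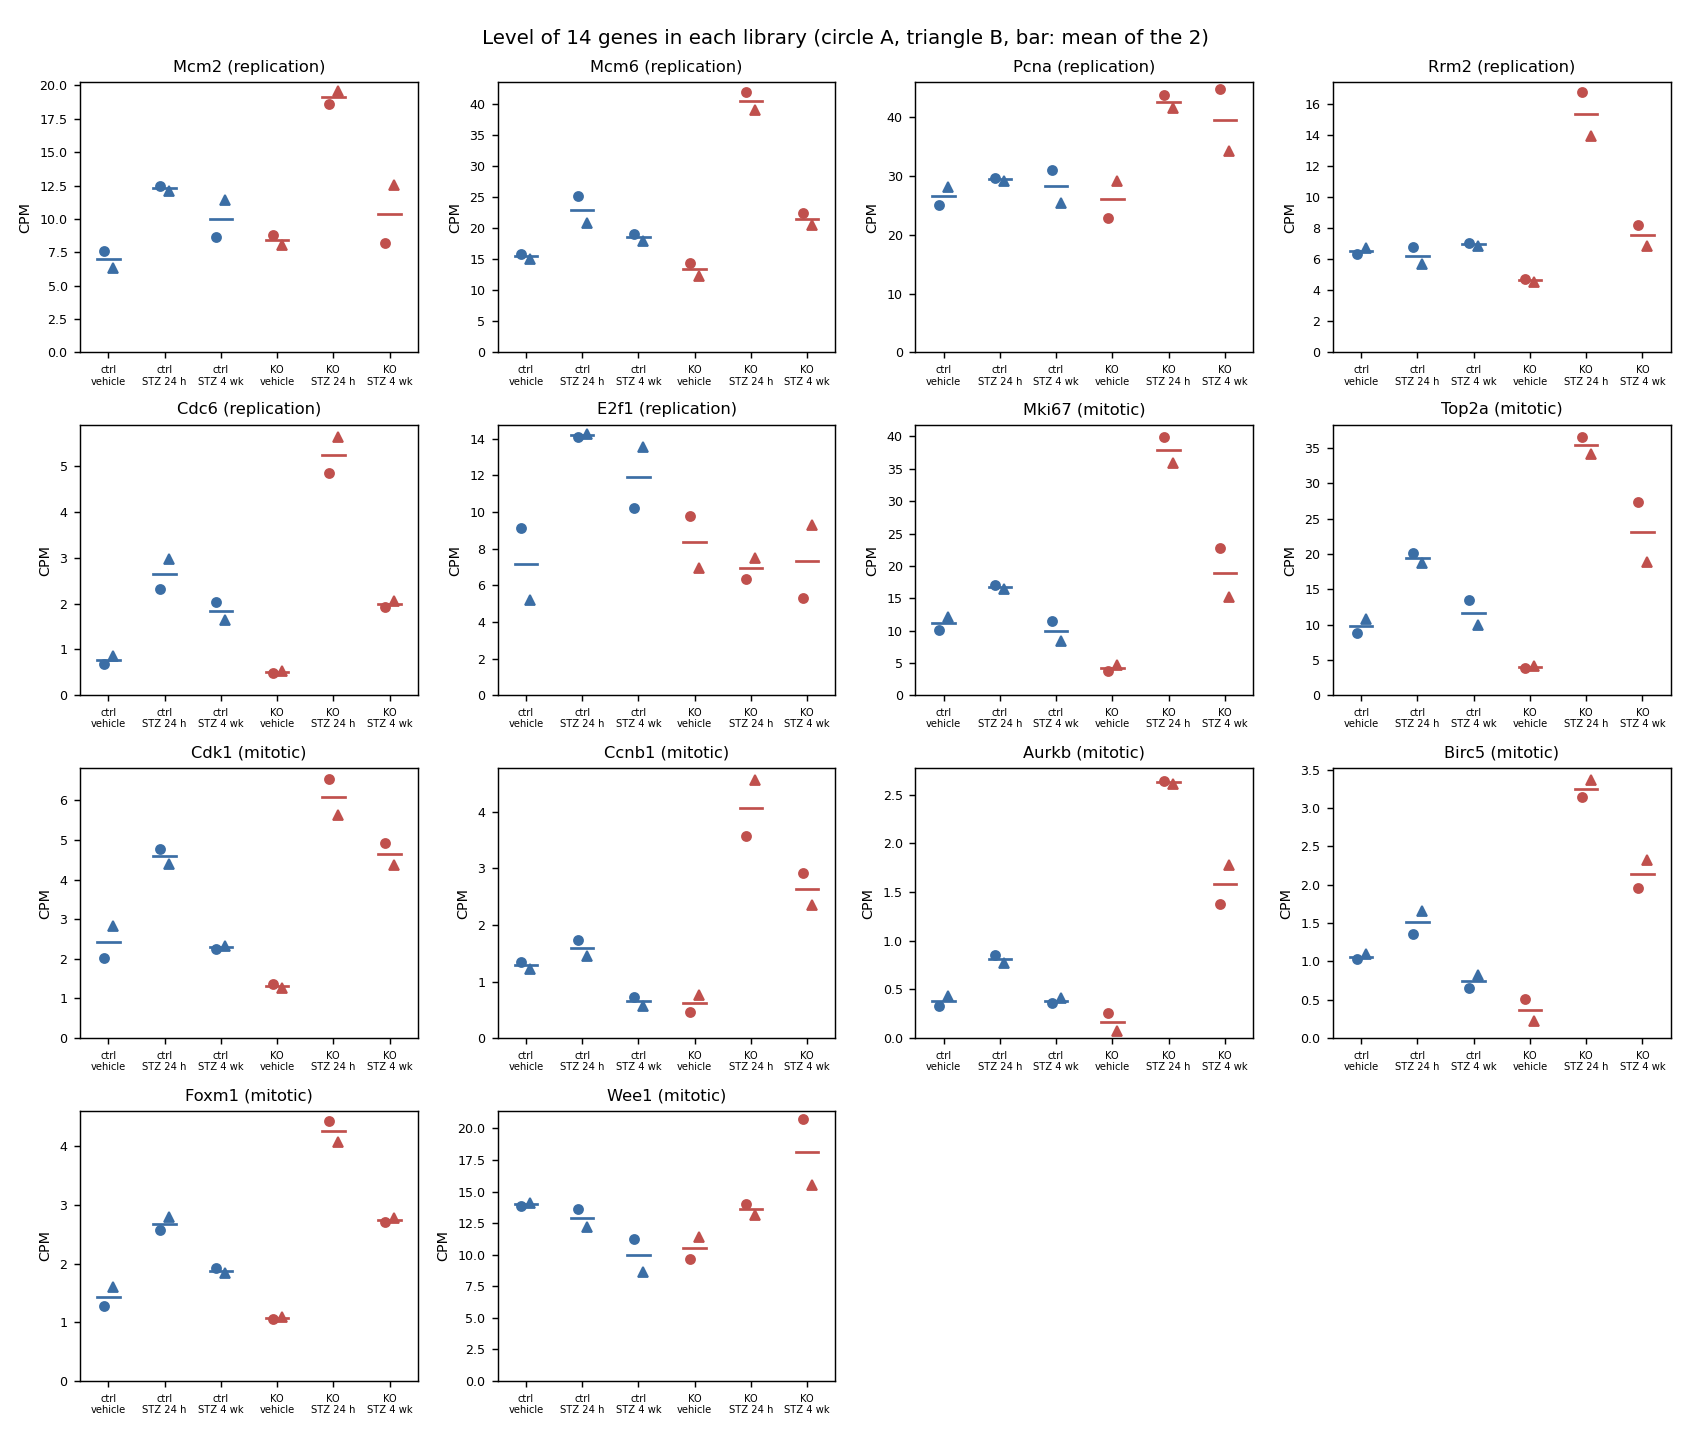
Level in CPM of 14 genes chosen for their role, in each library of the 6 groups, with A as a circle, B as a triangle and a bar at their mean, on linear axes from 0. Most panels peak in knockout STZ 24 h, as Mki67 does at 39.9 and 35.8 CPM, whereas E2f1 peaks in control STZ 24 h at 14.1 and 14.3 CPM and Wee1 in knockout STZ 4 wk at 20.8 and 15.5 CPM.

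A few genes departed from their class. E2f1, an activating E2F, was in controls at 9.11 and 5.18 CPM with vehicle, 14.1 and 14.3 at STZ 24 h and 10.2 and 13.6 at STZ 4 wk, and in knockouts at 9.81 and 6.92, 6.35 and 7.50, and 5.33 and 9.32 CPM in the same order. It was lower in knockout than in control at 24 h (-1.04 ± 0.34, adjusted p = 0.0371), with no overlap, while the helicase genes were higher. That call was lost without each of the 4 libraries (adjusted p = 0.0997 to 0.173), and under the endocrine scaling, which puts the median gene at 1.73, the difference was 0.69. The gap of E2f1 between A and B was wide in control vehicle and knockout STZ 4 wk. Ccne1 and Ccne2, the E cyclins, passed in no comparison, with Ccne2 at 10.2 and 10.2 CPM in control STZ 24 h and 6.07 and 5.90 in knockout STZ 24 h (-0.77 ± 0.31, adjusted p = 0.0748). Their partner Cdk2 thus rose in knockout without a called rise of either cyclin. Ccne1 was at 3.09 and 3.52 CPM in control STZ 24 h and 3.53 and 3.15 in knockout STZ 24 h, which overlap (0.02 ± 0.25, adjusted p = 0.968).

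Wee1, which opposes CDK1 and is known as a clock-controlled gene through E-boxes, was in controls at 13.9 and 14.1 CPM with vehicle, 13.6 and 12.2 at STZ 24 h and 11.3 and 8.64 at STZ 4 wk, and in knockouts at 9.67 and 11.4, 14.01 and 13.1, and 20.8 and 15.5 CPM in the same order. The libraries of the 2 genotypes did not overlap in vehicle, but the difference did not pass the test (-0.41 ± 0.18, adjusted p = 0.272). At 4 wk it was higher in knockout (0.86 ± 0.18, adjusted p = 0.00803), a call lost without control STZ 4 wk B (adjusted p = 0.0546). At 24 h in knockout, where the other 24 mitotic genes rose, its change from vehicle did not pass (0.36 ± 0.18, adjusted p = 0.124).

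Reads can be shared with other loci for some members. The gene models of Ccne2, Kif20a and Prc1 overlap those of Ints8, Cdc23 and Rccd1 on the other strand over 20.1%, 36.6% and 27.6% of their exons, although counting used strand. Pcna, Tyms, Ccnb1 and Ccnb2 have named pseudogenes, so their counts are uncertain where reads are shared.

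Other genes of the same processes were read from 2 further lists that hold no member, 38 replication and 46 mitotic genes tested. In vehicle islets 3 and 3 of them were lower in the knockout and none higher, shares of 7.89% and 6.52% that lie near the 7.68% of all genes. At 24 h, 13 replication genes (34.2%) were higher and 2 lower, and 19 mitotic genes (41.3%) were higher and 3 lower, against 23.7% of all genes higher and 19.4% lower. At 4 wk, 6 replication genes (15.8%) were higher and 1 lower, and 15 mitotic genes (32.6%) were higher and 1 lower, against 19.9% and 7.89%. E2f8, an E2F repressor, was lower in knockout vehicle (-2.15 ± 0.35, adjusted p = 0.00496) and higher at 24 h (1.32 ± 0.31, adjusted p = 0.00801) and 4 wk (1.38 ± 0.31, adjusted p = 0.0103). Uhrf1, which helps maintain DNA methylation behind the fork, was higher in knockout at 24 h (1.68 ± 0.19, adjusted p = 0.000153). Spc25, a subunit of the NDC80 kinetochore complex, went the other way at 24 h (-2.16 ± 0.26, adjusted p = 0.000209). In response to STZ at 24 h, 4 replication genes (10.5%) and 11 mitotic genes (23.9%) rose in control and none fell, against 5.41% of all genes higher. In knockout 29 (76.3%) and 41 (89.1%) rose and 2 and 1 fell, against 30.1% higher.

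Markers of several other cell types, but not of all, were highest in STZ knockouts. The 13 acinar markers summed to 348074 and 333283 CPM in control vehicle and to 340902 and 344222 in knockout STZ 24 h. In knockout against control at 24 h, 3 of 7 alpha cell markers were lower and 2 higher. Of 6 Schwann cell markers, 3 were lower and 0 higher. The 15 macrophage markers of controls summed to 115 and 109 CPM with vehicle, 225 and 223 at STZ 24 h and 129 and 143 at STZ 4 wk, and those of knockouts to 88.0 and 79.6, 1856 and 1858, and 398 and 473 CPM. As in the mitotic sums, knockout STZ 24 h was the highest group and knockout vehicle the lowest. This order was not particular to macrophage markers, since neutrophil, fibroblast and stellate, and liver markers had the same highest and lowest groups. The 10 liver markers summed to 39.7 and 36.5 CPM in knockout vehicle and to 16851 and 16281 in knockout STZ 24 h. The 11 lymphocyte markers in the table summed to 17.5 and 18.8 CPM in control vehicle, to between 2.97 and 4.49 in the 4 control STZ and 2 knockout vehicle libraries, and among STZ knockouts to 351 and 346 at 24 h and 34.9 and 36.8 at 4 wk. Among T and NK cell markers, Cd3d and Nkg7 were at 0 in control vehicle, Cd3d and Cd3e in control STZ 24 h, Cd2 in control STZ 4 wk, and Cd3d, Cd3e, Cd3g and Nkg7 in knockout vehicle. The 10 fibroblast and stellate cell markers summed to between 199 and 512 CPM in the 6 control and 2 knockout vehicle libraries, to 1198 and 1196 in knockout STZ 24 h and to 438 and 473 in knockout STZ 4 wk.

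Intestinal markers set the 4 wk knockout apart from every other group. The 13 summed to between 95.3 and 301 CPM in the 6 control and 2 knockout vehicle libraries, to 598 and 623 in knockout STZ 24 h and to 9567 and 9557 in knockout STZ 4 wk. At 24 h, 15 of 15 macrophage and 11 of 11 lymphocyte markers were higher in knockout than in control. So were 9 of 13 intestinal and 6 of 10 fibroblast markers, with 1 of each lower. Of all genes 23.7% were higher. At 4 wk 14, 11, 12 and 6 of these markers, in the same order, were higher and none lower, against 19.9% of all genes higher. Of 12 beta cell markers, 11 were lower at 24 h and 10 at 4 wk, against 19.4% and 7.89% of all genes. Beta cell markers summed to 22764 and 25330 CPM in knockout STZ 24 h and to 46783 and 79905 in knockout STZ 4 wk, against 84559 to 146134 in the other 8 libraries. The part of immune, stromal, liver and intestinal cells in the levels of replication and mitotic genes was not tested.

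**Figure D5:**
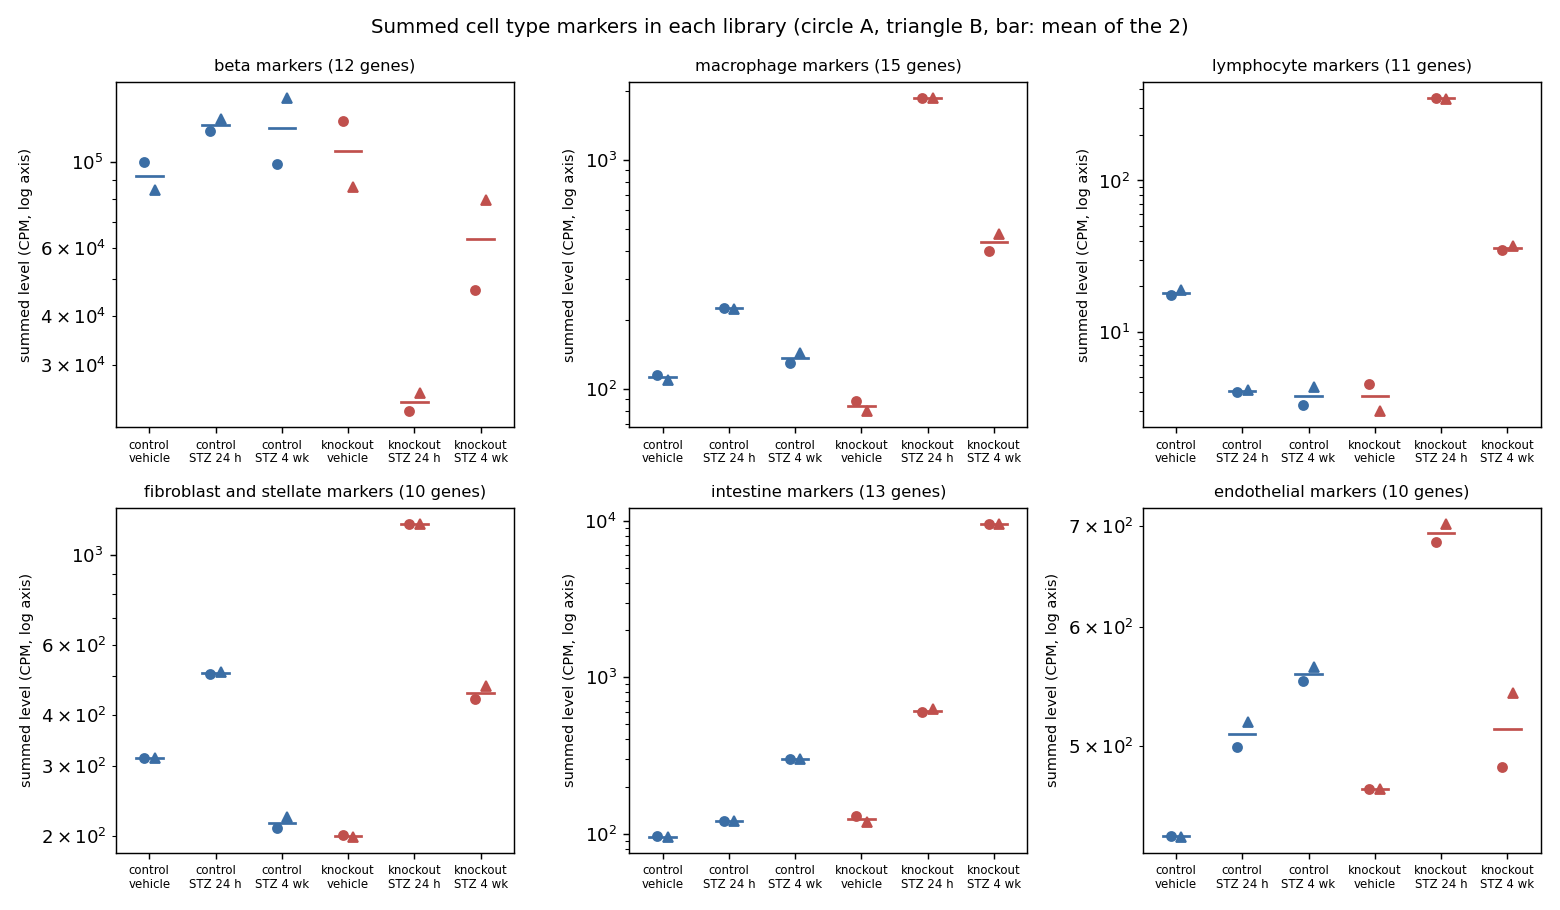
Summed level in CPM, on log axes, of the markers of 6 cell types in each library, with A as a circle, B as a triangle and a bar at their mean. Macrophage and lymphocyte sums peak in knockout STZ 24 h, at 1856 and 1858 CPM and at 351 and 346 CPM, where the beta cell sum is lowest, and the intestinal sum peaks in knockout STZ 4 wk, at 9567 and 9557 CPM.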

How the data were processed

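Stranded mRNA libraries of mouse islets were sequenced by the submitters. Estimated counts (expected counts) per gene and per transcript were deposited by the authors without scaling for depth. StringTie 1.3.6 estimated them on a fixed mm10 annotation with strand taken into account, per the file headers. For the alignment, the tool was not given in the sources used here. All 792 transcript counts of the 42 genes checked equal deposited coverage times length over 75, rounded up, so a count is proportional to a number of reads and not equal to it. Other values deposited in the transcript files (start and end positions) were used for gene models.

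The tool for tests was edgeR 4.0.16 (R 4.3.3), with TMM factors, filterByExpr (17411 genes kept) and a two-sided quasi-likelihood F test, robust option on, from 1 fit of the 12 libraries by group, with 6 residual degrees of freedom and a common dispersion of 0.0493. P-values were adjusted by Benjamini-Hochberg over all tested genes within each of 11 comparisons, at 0.05. CPM, log2 fold changes and SE were computed from the counts. A and B of a group were not copies, with a chi-square over degrees of freedom of 24.5 to 462. The steps were tested on simulated data.

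The genes, the lists and the tests were chosen with earlier results of these data known. Values in every library are given for 14 genes chosen for their role and for the 3 of smallest adjusted p in each class and direction per comparison. Genes outside the 42 are named from the 4 of smallest adjusted p of a list, and some results are not reported here. Alternatives were DESeq2 1.42.0 (size factors and Wald test), total-count scaling, scaling to genes shared by islet endocrine cells, no filter, the library letter as a block, only the 4 libraries compared, and each library left out. Promoter windows were read with Python 3.11.15 from RefSeq sequences.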

Additional observations from a re-analysis of the deposited data

Results flagged for a closer look

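The response to STZ differed between genotypes in a test of that difference itself, edgeR's interaction term with Benjamini-Hochberg adjustment over all tested genes. It passed for 30 of the 42 genes at 24 h and for 25 at 4 wk, and in every one the log2 change after STZ was larger in knockout than in control. Of all genes tested, 37.7% passed at 24 h and 21.1% were positive. At 4 wk 26.1% passed and 18.7% were positive. The values below are the knockout change minus the control change on the log2 scale, with 2 libraries in each group.

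At 24 h, among genes of the helicase and its loaders, it was 1.79 for Mcm3, 1.18 for Mcm4, 1.52 for Mcm5, 1.03 for Mcm6, 1.01 for Mcm7, 1.60 for Cdc6 and 2.12 for Cdt1. At 24 h, among genes of nucleotide supply and S phase entry, it was 1.79 for Rrm2, 0.68 for Tyms and 2.29 for Cdk2. At 24 h, among genes of mitotic kinases, cyclins and their transcription factor, it was 1.28 for Cdk1, 1.51 for Ccna2, 2.42 for Ccnb1, 2.41 for Ccnb2, 1.09 for Aurka, 2.89 for Aurkb, 2.53 for Plk1 and 1.09 for Foxm1. At 24 h, among genes of the checkpoint, centromere and exit from mitosis, it was 3.50 for Bub1b, 1.98 for Cenpe, 1.70 for Cenpa, 2.62 for Birc5 and 2.29 for Cdc20. At 24 h, among genes of chromosome structure, spindle and cytokinesis, it was 2.59 for Mki67, 2.15 for Top2a, 2.28 for Kif11, 0.93 for Kif20a, 2.36 for Kif23, 2.12 for Tpx2 and 2.05 for Nusap1. Bub1b had the largest of these and Tyms the smallest.

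At 4 wk, among genes of the helicase and its loaders, it was 1.88 for Cdt1. At 4 wk, among genes of nucleotide supply and S phase entry, it was 1.37 for Cdk2. At 4 wk, among genes of mitotic kinases, cyclins and their transcription factor, it was 1.89 for Cdk1, 1.83 for Ccna2, 3.08 for Ccnb1, 3.12 for Ccnb2, 1.16 for Aurka, 3.23 for Aurkb, 2.56 for Plk1, 1.27 for Wee1 and 0.97 for Foxm1. At 4 wk, among genes of the checkpoint, centromere and exit from mitosis, it was 2.83 for Bub1b, 2.77 for Cenpe, 1.59 for Cenpf, 2.07 for Cenpa, 3.04 for Birc5, 2.44 for Cdc20 and 2.82 for Ube2c. At 4 wk, among genes of chromosome structure, spindle and cytokinesis, it was 2.34 for Mki67, 2.28 for Top2a, 2.36 for Kif11, 1.73 for Kif23, 2.15 for Tpx2, 2.57 for Nusap1 and 1.47 for Prc1. The 4 wk values are mitotic apart from Cdt1 and Cdk2. The difference between the 24 h and 4 wk interactions was not tested, and both share the vehicle libraries.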

How the results depend on the processing

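Members called (of 42) under other settings are given where they moved by over 1.5 times. Calls over all genes tested moved too. In knockout against control vehicle, endocrine scaling gave 91 higher and 3499 lower, where TMM gave 342 and 1337. For control STZ 24 h against vehicle, total-count scaling gave 2408 and 226 and endocrine scaling 728 and 429, where TMM gave 942 and 375. From 24 h to 4 wk in knockout, endocrine scaling gave 535 and 11804, where TMM gave 3512 and 2699. Calls over all genes under the blocks, DESeq2 and fewer libraries are not reported here. In knockout against control vehicle 8 were called, against 28 with endocrine scaling, 18 with a replicate block within the condition, 3 with only the 4 libraries compared, 16 by DESeq2 and 4 to 7 with a library left out. At STZ 24 h 30 were called, and 14 to 19 with a library left out. At STZ 4 wk 25 were called, against 38 with endocrine scaling, 7 with only 4 libraries and 12 to 23 with a library left out. For control STZ 24 h against vehicle 11 were called, against 22 with total-count scaling, 6 with endocrine scaling, 21 with only 4 libraries and 2 to 7 with a library left out. For control STZ 4 wk against vehicle 2 were called, against 9 with total-count scaling, 4 with endocrine scaling, 1 with the replicate block, 0 with only 4 libraries, 4 by DESeq2 and 0 to 1 with a library left out. For the 4 wk interaction 25 were called, against 39 with endocrine scaling. From 24 h to 4 wk, 6 were called in control, against 3 with only 4 libraries, 15 by DESeq2 and 1 to 3 with a library left out, and 19 in knockout, against 41 with endocrine scaling, 11 with only 4 libraries and 9 to 16 with a library left out.

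The replication minus mitotic median (log2) with a library left out ran from 0.61 to 0.84 in vehicle, -0.36 to -0.12 at STZ 24 h, -1.04 to -0.78 at STZ 4 wk, -0.43 to -0.18 and -1.63 to -0.95 for STZ 24 h against vehicle in control and knockout, 0.24 to 0.37 and -1.64 to -1.29 for STZ 4 wk against vehicle, -1.14 to -0.74 and -1.76 to -1.61 for the interactions at 24 h and 4 wk, and 0.50 to 0.58 and -0.39 to -0.087 from 24 h to 4 wk in control and knockout, each with the sign of the value on all libraries.

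Single genes reversed under a scaling: Pcna in vehicle was 0.50 with total-count scaling, and with endocrine scaling E2f1 was 0.69 in knockout against control at 24 h, 1.69 in knockout STZ 24 h against vehicle and -1.17 from 24 h to 4 wk in knockout, where Wee1 was -0.79, and Mcm2 was 0.82 in the 4 wk interaction. Of the other single-gene values, 2041 kept their side of the threshold, 149 lost their call and 74 gained one. Total-count scaling put the median gene at 0.53, -0.24 and -0.08 in knockout against control at vehicle, 24 h and 4 wk, and endocrine scaling at -0.41, 1.73 and 0.64, so absolute direction depends on the scaling.

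The labels share the letters A and B but name no shared animal, litter or day. The A minus B gap correlated between genotypes at 0.117 in vehicle, 0.0492 at 24 h and 0.478 at 4 wk across 17411 genes, and at 0.207, 0.156 and 0.728 across the 14175 genes with a mean of at least 1 CPM, which are not independent replicates. Between groups of different conditions the gap correlated across the 14175 genes at -0.584 to 0.44, so a correlation is not particular to groups of the same condition. With the letter as a replicate block over all groups 8, 24, 20, 10, 38, 1, 33, 28, 25, 5 and 17 members were called in the 3 genotype comparisons, STZ 24 h in control and knockout, STZ 4 wk in both, the interactions and the step to 4 wk in both. With the replicate block within the condition, 12 replication and 24 mitotic genes were positive and 2 replication genes negative in the 24 h interaction, and 7, 25 and 1 in the 4 wk interaction. With 2 libraries a group, differences in the least counted genes have wide errors.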

Other observations

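Cdkn1a, which encodes the CDK inhibitor p21 and is named here after its values were seen, was at 161 and 155 CPM in knockout STZ 24 h, the group with the highest replication and mitotic sums. It was at 76.4 and 82.6 CPM in knockout STZ 4 wk, at 42.3 and 38.9 in knockout vehicle, at 44.2 and 42.7 in control vehicle and at 22.9 to 27.4 in the 4 control STZ libraries. In control islets it was thus lower after STZ than after vehicle, and in knockout islets higher, with no overlap between libraries in either genotype.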
